A study of Mus musculus with 46 samples.

Results

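The 10 genes described here are used to ask whether a cell keeps an epithelial identity or carries a mesenchymal one. They were chosen by name and are 10 of the 48795 genes measured, with values read in all 46 samples. Of these, 6 are epithelial genes (Epcam, Cdh1, Krt7, Krt8, Krt18 and Krt19), 3 are mesenchymal genes (Cdh2, Vim and Zeb1) and the last, Cdx2, is a transcription factor gene of the intestinal epithelium. Cultures of MC-38, a mouse colon carcinoma cell line, served as the reference for the carcinoma cell without host tissue.

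Epithelial cells hold to each other through E-cadherin, the product of Cdh1, and build their inner scaffold from keratins, of which keratin 8 pairs with keratin 18 in simple epithelia such as the gut lining. In an epithelial-mesenchymal transition, repressors such as ZEB1 shut down Cdh1 and other epithelial genes, N-cadherin (Cdh2) takes the place of E-cadherin and vimentin (Vim) becomes the main intermediate filament. The adhesion protein EpCAM, keratin 19 and the transcription factor CDX2 are widely used to recognise colon epithelium and tumors derived from it.

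RNA-seq of bulk material covered 3 cultures of MC-38 cells and 43 tumors that had grown from them under the skin of the right flank of female C57BL/6NTac mice aged 8 to 10 weeks. In WT mice there were 3 untreated baseline tumors, 5 tumors each from mice given isotype control or the PD-1 antibody muDX400 (5 mg/kg) and labelled 1 dose and day 4, and 5 each labelled 2 doses and day 8. A further 10 tumors came from WT mice and 10 from mice labelled PD-1cKO, all given tamoxifen (40 mg/kg on 5 days) and labelled day 28, although the study's methods name another day for these tumors. The labels give genotype WT for the controls, which the methods call littermates. By the dosing in the study's methods, days 4 and 8 count from the first antibody dose, given 7 days after implant. Day 28 is counted from implant, so the labelled days are not on a single scale of tumor age. In PD-1cKO mice a tamoxifen-activated Cre driven from the ubiquitous Rosa26 locus removes exons 2 and 3 of Pdcd1 from host cells, while the implanted MC-38 cells carry no such allele. The values are FPKM (fragment counts scaled to transcript length and to the total of the library), so levels of different genes can be set side by side per length, but the number of reads behind them is unknown. In bulk tissue, fewer cells of a type and less RNA per cell cannot be told apart.

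Several libraries stood apart. Short noncoding RNAs held 30.2% to 66.5% of the FPKM in the 20 tumors of the PD-1cKO study and at most 0.0817% in the other 26 samples, and mitochondrial genes held 54.6% in isotype control replicate 1 of day 4. The targeted gene, Pdcd1, had a median of 8.29 FPKM (5.05 to 19.9) in the 10 tumors labelled PD-1cKO and 3.01 (1.71 to 7.02) in the 10 WT tumors. The group called by the deletion label was thus higher, and since a value for the whole gene does not separate exons 2 and 3 from the rest, it does not check that label. Directions under it are given for tumors labelled PD-1cKO.

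Cultured MC-38 cells showed almost no RNA of the epithelial genes. Cdh1 was at 0.0082, 0 and 0.0339 FPKM in the 3 cultures, and Krt7 was listed at 0 in all of them. Epcam was at 0.195, 0.231 and 0.221 FPKM. The 3 cultures lay close together, and for both genes with a value they stayed far under 1 FPKM. Krt8 was at 0.24, 0.313 and 0.353 FPKM, its partner Krt18 at 0.129, 0.101 and 0.134, and Krt19 at 0.0439, 0.0298 and 0. Cdx2 was listed at 0 in all 46 samples. A value listed at 0 is not proof of absence in this table, since 151 of the 6796 genes whose median was 10 FPKM or more were also listed at 0 somewhere.

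The mesenchymal genes were plainly present in the same cultures. Vim was at 972, 1026 and 916 FPKM, between ranks 37 and 54 of the 21759 nuclear protein-coding genes. Cdh2 was at 23.3, 24.0 and 23.2 FPKM and Zeb1 at 10.0, 9.95 and 10.3. On the log2 scale of FPKM with 0.1 added, Cdh1 lay below Cdh2 by a difference of -7.91, -7.76 and -7.44 (lowest, median and highest culture). The labelled cell type, a colon carcinoma, was therefore not marked by its usual epithelial genes, while the genes of a mesenchymal cell were high.

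Other genes of the same programs gave the same picture in culture. Of 38 further epithelial genes (junction proteins, claudins, desmosomal proteins, epithelial splicing and transcription factors), 3 had a mean of at least 1 FPKM in the cultures, 0 reached 10 FPKM and 11 were listed at 0 in every culture. The highest means were those of Jup (4.72 FPKM), which encodes plakoglobin of desmosomes and adherens junctions, Llgl2 (2.94), a polarity gene, the plakophilin Pkp1 (1.37) and Pkp3 (0.452). Of 29 further mesenchymal genes, 25 had a mean of at least 1 FPKM and 21 of at least 10. They were led by S100a4 (996 FPKM), a calcium-binding protein of motile cells, the matrix protein Sparc (280), the actin-binding Cald1 (230) and fibronectin, Fn1 (180). Of 22 genes of the intestinal lineage, 5 had a mean of at least 1 FPKM in culture, 1 reached 10 FPKM and 5 were listed at 0 in every culture. The highest included Sox9 (32.9 FPKM), a transcription factor gene of crypt cells, and the crypt receptors Ephb2 (8.33) and Ephb3 (3.83).

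**Figure D1:**
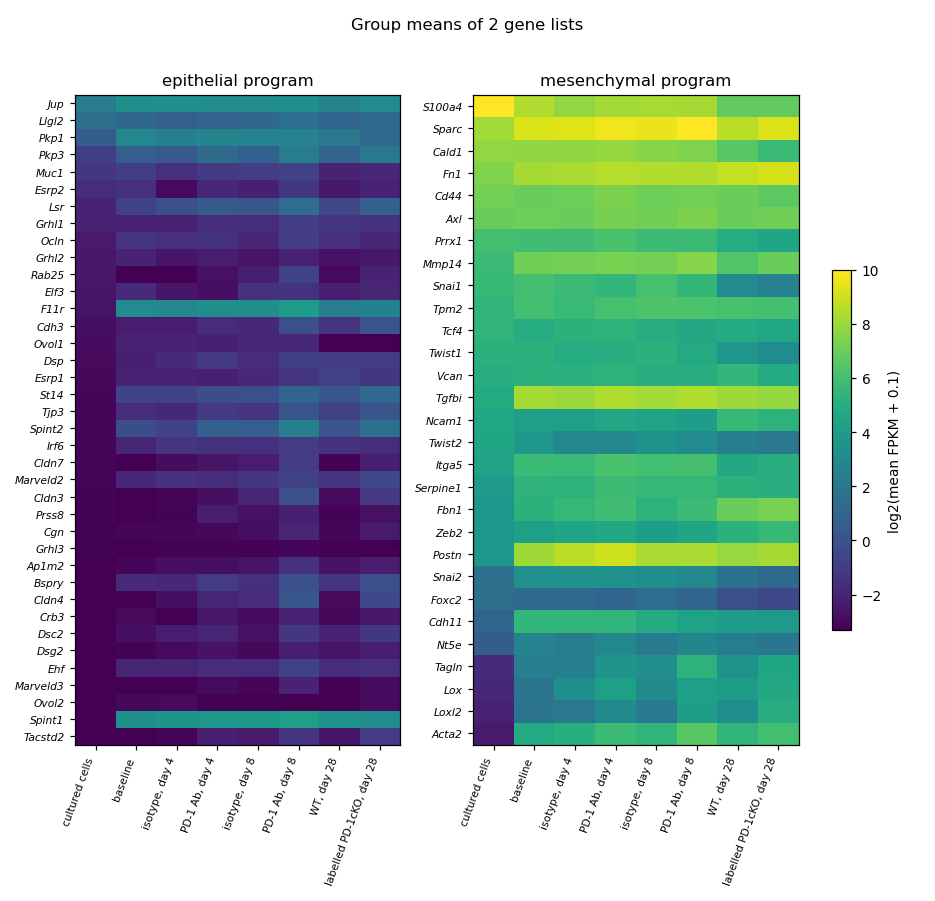
Mean level of each gene of the epithelial and mesenchymal lists in the 8 groups, as color on a scale of log2(mean FPKM + 0.1), with genes ordered by their mean in cultured cells. In culture 3 of 38 epithelial and 25 of 29 mesenchymal genes had a mean of at least 1 FPKM.

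In the tumors, E-cadherin RNA was present throughout. Cdh1 was at 0.634, 1.17 and 1.01 FPKM in the baseline tumors, at 0.709, 1.35, 1.11, 1.64 and 1.47 in isotype controls of day 4, and at 1.68, 1.18, 1.52, 1.10 and 1.72 in those of day 8. In WT tumors of day 28 it ranged from 2.33 to 8.15 FPKM around a median of 4.88. All 43 tumors were above every culture, which held for 1 of the 10 genes and for 6.71% of 19269 protein-coding genes, while 0 of the 10 had every tumor below every culture, against 10.5% of those genes. Against culture the log2 fold changes of Cdh1 were 3.16 (SE 0.40, adjusted p 0.000424) at baseline, 3.53 (SE 0.39, 0.000131) at day 4, 3.75 (SE 0.25, 2.04e-06) at day 8 and 5.38 (SE 0.31, 7.94e-10) in WT tumors of day 28. All tests were fitted with limma to log2(FPKM + 0.1) over the genes that averaged 0.5 FPKM or more in a group of the comparison, adjusted over those genes and passed at an adjusted p under 0.01. Cdh1, Epcam and the keratins, all under 0.5 FPKM in culture, met that filter only through the tumors, where they were high, so these tests could hardly have called them lower and the values are given as a description. With no filter on the genes, the adjusted p-values of Cdh1 were 0.000788, 0.000438, 1.15e-05 and 7.28e-09. With 1 FPKM added in place of 0.1 the same log2 fold changes were 0.93, 1.14, 1.26 and 2.48, and all passed. Even so, Cdh1 reached only rank 8609 (median) of the 21759 protein-coding genes in WT tumors of day 28.

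Epcam, the epithelial adhesion gene, was at 0.665, 0.881 and 1.07 FPKM at baseline, at 0.289, 0.668, 0.784, 0.761 and 0.667 in isotype controls of day 4, and at 2.21, 1.13, 1.49, 0.734 and 0.825 in those of day 8. WT tumors of day 28 ranged from 0.36 to 0.856 FPKM around 0.698. None of these 4 groups overlapped the cultures. Epcam, tested because of its tumor levels, had log2 fold changes against culture of 1.61 at baseline (SE 0.30, adjusted p 0.0027), 2.03 in isotype controls of day 8 (SE 0.34, 0.000999) and 1.19 in WT tumors of day 28 (SE 0.23, 0.000247). With no filter the adjusted p-values were 0.00546, 0.00306 and 0.000829. At day 4 its log2 fold change of 1.16 did not pass (SE 0.40, adjusted p 0.0703), and without isotype control replicate 1, the library rich in mitochondrial RNA, it passed at 1.38 (adjusted p 0.000817). The baseline call was lost when any of the 3 cultures was left out (adjusted p 0.0122 to 0.0151).

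Zeb1, which encodes the repressor of Cdh1, was also higher in tumors than in culture. It was at 13.98, 14.3 and 16.1 FPKM at baseline and at 11.5, 16.4, 17.6, 16.6 and 20.6 in isotype controls of day 4. In WT tumors of day 28 it ranged from 12.9 to 23.1 FPKM around a median of 21.4. These groups did not overlap the cultures, whereas isotype controls of day 8 (13.5, 18.5, 8.00, 15.7 and 11.4 FPKM) did. Zeb1 rose against culture at baseline (log2 fold change 0.54, SE 0.08, adjusted p 0.000711) and in WT tumors of day 28 (0.96, SE 0.14, 2.61e-05). The log2 fold changes were 0.68 at day 4 (SE 0.26, adjusted p 0.104, and 0.81 with 8.63e-05 without isotype control replicate 1) and 0.35 at day 8 (SE 0.23, adjusted p 0.231). In the baseline tumors, the isotype controls of day 4 and the WT tumors of day 28, every sample was above every culture for both Cdh1 and the gene of its repressor.

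Vim, the intermediate filament of mesenchymal cells, was at 1296, 1300 and 1275 FPKM at baseline and rose against culture (log2 fold change 0.41, SE 0.06, adjusted p 0.00102). In isotype controls of day 8 it was at 1295, 1219, 1601, 1425 and 1481 FPKM and also rose (0.53, SE 0.12, 0.00517). The 5 isotype controls of day 4 held 578, 1427, 1330, 1455 and 1299 FPKM, with replicate 1 below every culture. Their log2 fold change was 0.25 (adjusted p 0.569), and without replicate 1 it was 0.50 and passed (0.00027). The day 8 call was lost when any of the 3 cultures, isotype control replicate 4 or replicate 5 was left out (adjusted p 0.0119 to 0.0345). In WT tumors of day 28 Vim ranged from 947 to 1257 FPKM around 1057, overlapped the cultures and had a log2 fold change of 0.14 (adjusted p 0.308), which was 0.50 and passed after median-of-ratios scaling (0.00311).

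Cdh2 was lower than in culture in WT tumors of day 28. N-cadherin RNA was at 21.5, 21.5 and 21.0 FPKM at baseline, at 27.1, 25.0, 17.0, 19.4 and 19.8 in isotype controls of day 8, and at 10.1, 23.8, 25.5, 23.8 and 25.5 in those of day 4, of which the lowest is again replicate 1. Its log2 fold changes against culture were -0.14 (adjusted p 0.0506), -0.14 (0.451) and -0.19 (0.704). In the 10 WT tumors of day 28 Cdh2 ranged from 6.49 to 14.3 FPKM around 9.16, below all 3 cultures, and fell by 1.32 on the log2 scale (SE 0.20, adjusted p 2.71e-05). The median of all genes tested in that comparison was -0.40, and -0.03 after median-of-ratios scaling, and over 23 alternatives the Cdh2 difference stayed between -1.40 and -0.96 and passed in each. The cultures and the WT tumors of day 28 differ in the share of short noncoding RNA, so tumor growth and library cannot be told apart there. The same limit holds for every gene compared between these groups, Cdh1, Epcam and Zeb1 included. Whether the fall in WT tumors differed from that in the other tumors was not tested.

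Counted over the genes tested, 4 of 5 passed as higher and 0 as lower at baseline, where 20.8% of all tested genes passed as higher and 18.3% as lower. For isotype controls of day 4 it was 1 of 5 higher and 0 lower (background 7.41% and 3.32%), and 4 of 5 higher without replicate 1. For isotype controls of day 8 it was 4 of 8 higher and 0 lower (20.2% and 16.8%), and for WT tumors of day 28 3 of 5 higher and 1 lower (22.5% and 46.8%). Of the genes counted as higher, Cdh1, Epcam and Krt19 were tested only because of their tumor levels, so the counts give no support to a direction. These 4 comparisons share their 3 cultures. The median of all tested genes was -0.04, -0.43, -0.11 and -0.40 in turn, as deposited.

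**Figure D2:**
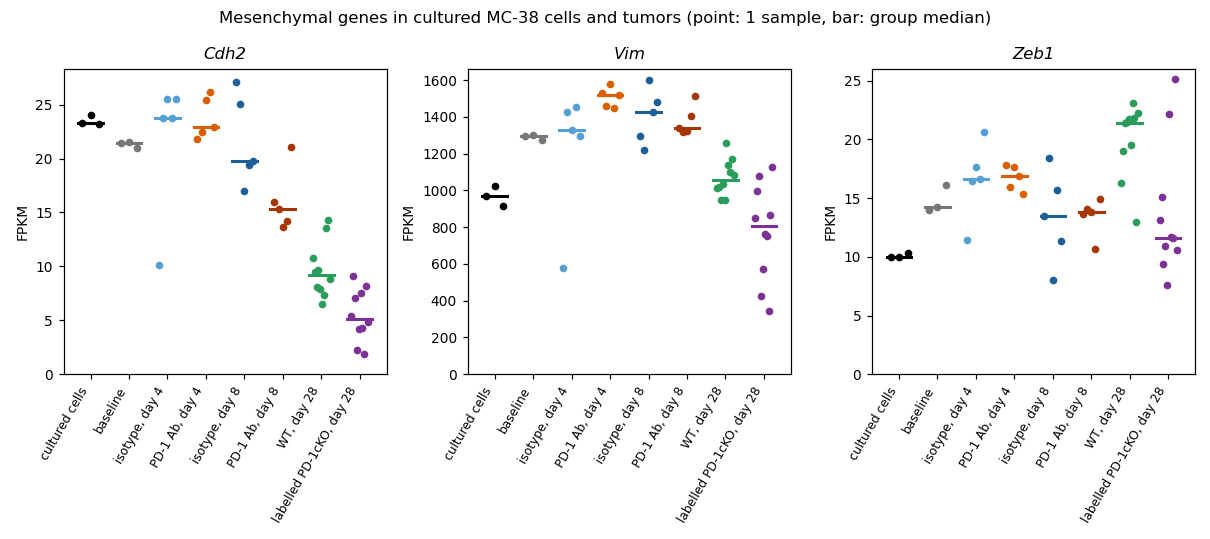
FPKM of Cdh2, Vim and Zeb1 in each sample of the 8 groups on linear axes from 0, with bars at group medians. Cdh2 lies at 23.2 to 24.0 FPKM in the cultures and at most 14.3 FPKM in the 20 tumors of day 28, and Vim is at least 342 FPKM in every sample.

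The wider lists showed which genes came with the tumor. Of the epithelial genes, 7 of 9 tested were higher at baseline than in culture (20.8% of all tested genes), 3 of 8 in isotype controls of day 4 (7.41%), 8 of 9 in those of day 8 (20.2%) and 9 of 10 in WT tumors of day 28 (22.5%), with 1 lower in WT tumors (Llgl2, log2 fold change -0.59, adjusted p 0.00721). The median log2 fold changes of these tested genes were 2.31, 1.79, 2.20 and 2.10. A gene near 0 in culture could pass the filter only through the tumors, so these counts describe the list and give no support to a direction. Spint1, a protease inhibitor of epithelia, was listed at 0 in all cultures and ranged from 2.13 to 22.4 FPKM in the tumors, and the junctional adhesion gene F11r went from at most 0.147 to between 3.39 and 19.7 FPKM. Spint2, the related inhibitor, had a log2 fold change of 3.57 in isotype controls of day 8 (adjusted p 0.000173), and the protease gene St14 3.25 in WT tumors of day 28 (1.64e-10).

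Of the mesenchymal genes, which were all tested, 18 of 29 were higher and 2 lower at baseline (20.8% and 18.3% of all tested genes), 8 and 1 in isotype controls of day 4 (7.41% and 3.32%), 16 and 2 in those of day 8 (20.2% and 16.8%), and 16 and 8 in WT tumors of day 28 (22.5% and 46.8%). Acta2, Lox, Loxl2 and Tagln had culture means of 0.0938, 0.177, 0.135 and 0.21 FPKM and met the filter only through the tumors. Their place among the higher genes gives no support to a direction. Smooth muscle actin, Acta2, was at or below 0.147 FPKM in the cultures and at 13.6 to 153 in the tumors, and periostin, Postn, rose from 12.6 FPKM in culture to 279 at baseline (log2 fold change 4.43, adjusted p 7.64e-07). S100a4 was the gene that led the list in culture and was below every culture in all 43 tumors (57.9 to 477 FPKM). The transcription factor genes Snai1 and Twist2 were lower in WT tumors of day 28 (log2 fold changes -2.57 and -2.25, adjusted p 3.35e-07 and 1.13e-09). The 8 fibroblast markers summed to 109 to 114 FPKM in culture and to 453 to 12556 FPKM in tumors. The 6 endothelial markers summed to at most 0.272 FPKM in culture and 6.85 to 92.8 in tumors, and the 8 leukocyte markers to at most 3.48 and 157 to 2496 FPKM. Their part in the differences between tumor and culture was not tested.

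**Figure D3:**
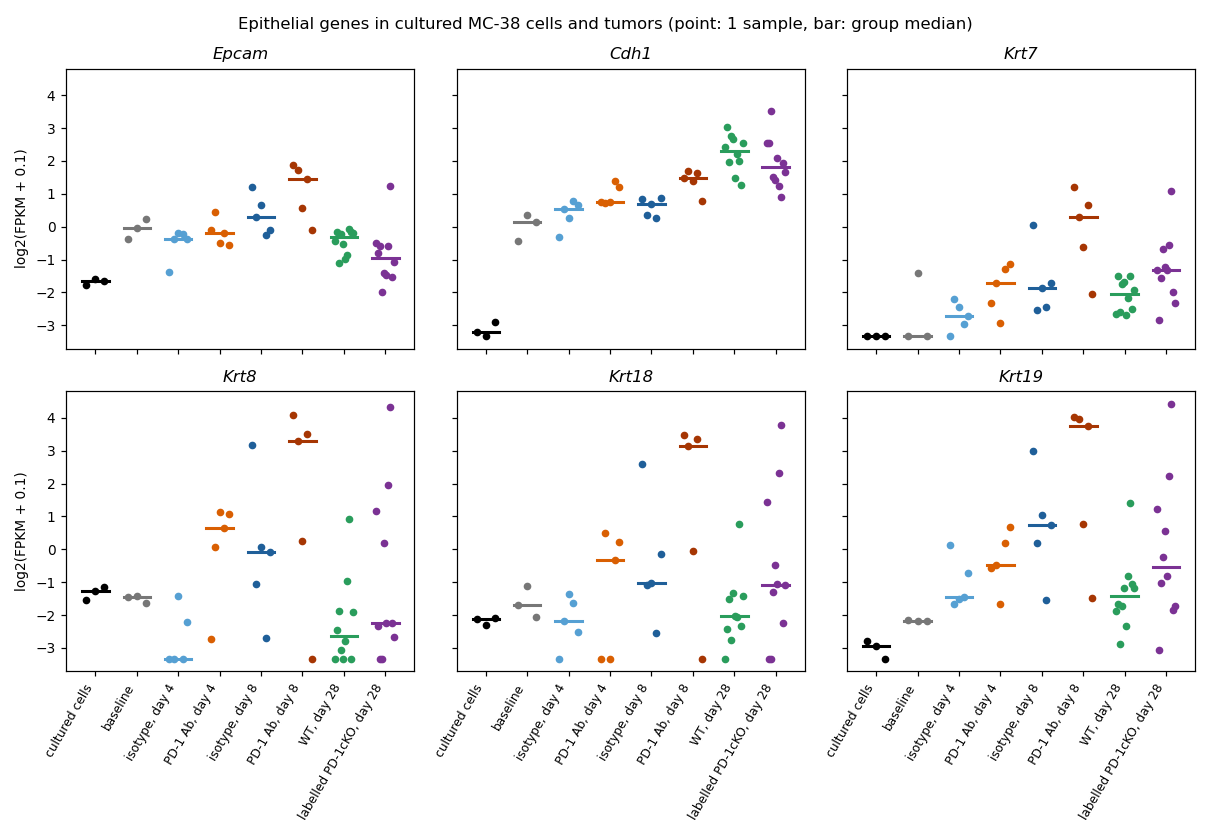
Epcam, Cdh1, Krt7, Krt8, Krt18 and Krt19 in each sample of the 8 groups on a log2(FPKM + 0.1) axis, with bars at group medians, so that a value listed at 0 lies at the bottom. Cdh1 is above the cultures in all 43 tumors, while Krt8, Krt18 and Krt19 are spread widely among tumors of 1 group.

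The keratins of simple epithelia behaved unlike Cdh1, with most of their RNA in a few tumors. Krt8 was above 1 FPKM in 13 of the 43 tumors and above 5 in 5, while 9 tumors were listed at 0 and 22 were below every culture. Krt18 was above 5 FPKM in 5 tumors and Krt19 in 5. The 5 were the same tumors for all 3 genes. PD-1 Ab replicates 1, 2 and 4 of day 8 held 16.8, 9.61 and 11.3 FPKM of Krt8. Isotype control replicate 1 of day 8 held 8.89 FPKM, and replicate 8 of the tumors labelled PD-1cKO held 19.8, the highest of all samples. In those 5 tumors Krt18 was at 11.0, 8.65, 10.2, 5.91 and 13.6 FPKM and Krt19 at 16.2, 15.6, 13.4, 7.90 and 21.3 FPKM, in the same order. Krt7 never passed 2.19 FPKM and was above 1 FPKM in 4 tumors, all of them among these 5. Krt19 was at 7.90, 1.04, 1.98, 0.242 and 1.58 FPKM in isotype controls of day 8, all above the cultures. This was the 1 group compared with culture that took Krt19 past the filter, and its log2 fold change there was 3.71 (SE 0.82, adjusted p 0.00462). That call was lost with no filter (adjusted p 0.0125), with 1 FPKM added (1.45, 0.0349) or without any of the 3 cultures or replicate 5 (0.0122 to 0.0228). Krt18 and Krt8 had log2 fold changes of 1.73 (SE 0.94, adjusted p 0.147) and 1.21 (SE 1.05, 0.354) there, and with array weights Krt18 passed (2.72, adjusted p 0.00784).

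Over the 43 tumors, deviations of log2(FPKM + 0.1) from the group means correlated between Krt8 and Krt18 with Pearson's r of 0.88, between Krt18 and Krt19 with 0.86 and between Krt8 and Krt19 with 0.85. Krt7 correlated with these 3 genes at 0.71 to 0.82, and Epcam at 0.65 to 0.67. Cdh1 did not move with them (r of -0.09 with Krt8, -0.11 with Krt18 and -0.13 with Krt19). With the mesenchymal genes, Cdh1 had r of 0.43 (Cdh2), 0.46 (Vim) and 0.14 (Zeb1). Zeb1 had r of -0.12 with Krt8, -0.12 with Krt18 and -0.28 with Krt19. These are descriptions over tumors that share libraries, batches and levels near 0. The log2 ratio of Krt18 to Krt8 had group medians from -0.95 in culture to 0.35 in WT tumors of day 28, and in single tumors the ratio ranged from -4.45 to 2.03. Krt8 shares 29.7% of its 50-base stretches with a pair of other loci (Krt8-ps and Gm36026), while Krt18 shares 0.72% and Krt19 0%. How far reads of these loci enter the FPKM of Krt8 was not measured.

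Markers of other tissues moved with the same tumors. Adipoq, the adipocyte hormone gene, was at 29.2, 48.5 and 55.7 FPKM in PD-1 Ab replicates 1, 2 and 4 of day 8 and at 86.2 in replicate 8 labelled PD-1cKO, but at 43.9 in PD-1 Ab replicate 3 of day 8, where Krt8 was 1.09 FPKM, and at 6.86 in isotype control replicate 1, where Krt8 was 8.89. Adipoq and the next gene were singled out after their values were seen. Elf5, a transcription factor gene of mammary and other glandular epithelium, was at 0.47, 0.695, 0.566, 0.254 and 0.441 FPKM in the 5 tumors high in Krt8, and listed at 0 in all 3 baseline tumors and all isotype controls of day 4. Elf5 was also at 0.303 and 0.195 FPKM in PD-1 Ab replicates 5 and 4 of day 4, where Krt8 was 1.99 and 1.48. Yet it was listed at 0 in replicate 7 labelled PD-1cKO, where Krt8 was 3.77, and in PD-1 Ab replicate 3 of day 4, where Krt8 was 2.09. WT replicate 8 of day 28 held 0.0137 FPKM of Elf5 with Krt8 at 1.79. In isotype control replicate 2 of day 8 it was at 0.0888 FPKM, with Krt8 at 0.38. The summed 5 adipocyte markers correlated with Krt8 at r of 0.65, with Krt18 at 0.69 and with Krt19 at 0.63, and the summed 6 mammary markers at 0.53, 0.53 and 0.51. For the summed leukocyte markers the values were 0.39, 0.56 and 0.40, for the endothelial markers 0.41, 0.53 and 0.39, and for the 13 keratinocyte markers 0.07, -0.01 and -0.08. The adipocyte sum ranged from 7.24 to 196 FPKM in PD-1 Ab tumors of day 8 and 1.52 to 19.0 in isotype controls of day 8, and from 1.13 to 387 in tumors labelled PD-1cKO and 0.915 to 29.4 in WT tumors. The mammary sum stayed at or below 6.43 FPKM in every group, and the milk protein gene Wap was listed at 0 throughout. In culture Adipoq, Plin1, Cidec and Lep were listed at 0. The part of these markers in the keratin values was not tested.

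**Figure D4:**
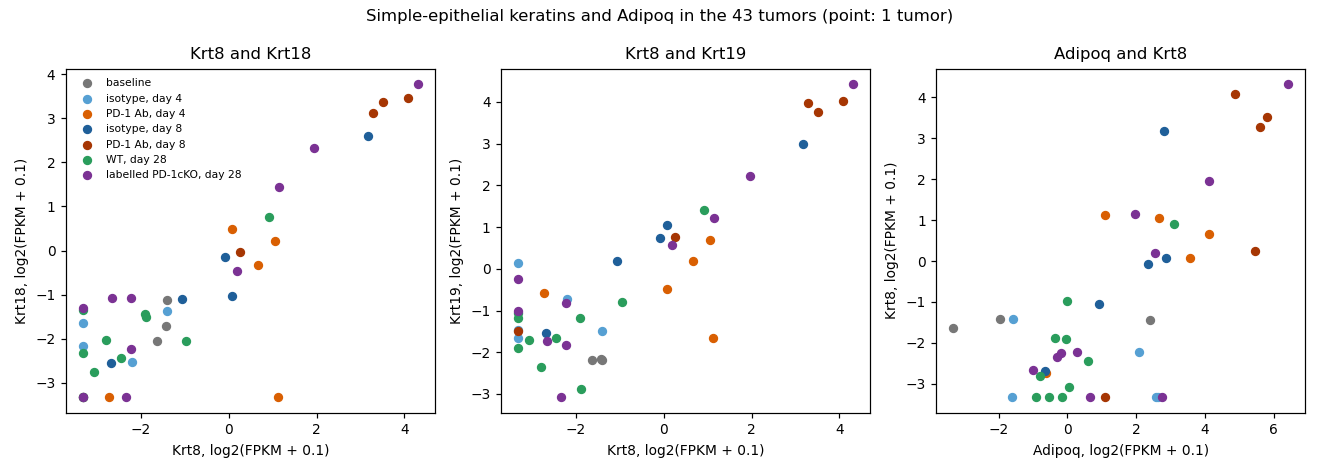
Krt18 and Krt19 against Krt8, and Krt8 against Adipoq, in the 43 tumors on log2(FPKM + 0.1) axes, each point 1 tumor in its group's color. The 5 tumors above 5 FPKM of Krt8 are also the highest in Krt18 and Krt19, while a PD-1 Ab tumor of day 8 with 43.9 FPKM of Adipoq holds 1.09 FPKM of Krt8.

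Other keratins are given by their group means. Of 54 keratin genes in the table, 10 had a mean of at least 1 FPKM in any group. Krt14, a keratin of the basal layer of the skin, had a mean of 0.255 FPKM in culture and 11.8 to 21.6 in the tumor groups, and no sample was listed at 0. Krt10, a keratin of differentiated epidermis, was highest in culture (mean 4.74 FPKM, against 0.415 in WT tumors of day 28). Krt16 reached 7.49 FPKM, Krt80 3.15, Krt42 2.48 and Krt17 1.70, each as the mean of tumors labelled PD-1cKO.

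The bases before the start sites of 3 of the epithelial genes are shown, all of which hold the letters searched for. Whether these letters relate to the levels of the genes was not tested. ZEB1 and the related Snail proteins bind the E-box CAGGTG, which reads CACCTG on the other strand and overlaps no other motif searched. In RefSeq (GRCm38.p6), the 250 bases before the start held these letters in 4 of the 6 genes here with a window (66.7%). Epcam, Krt7 and Krt18 are among these 4. The letters occur in 17.2% of the 32851 windows of that length over all genes. Capitals mark the E-box, and bases annotated as untranslated in GENCODE are left out. The sequences lie at chr17:87635729-87635978 (Epcam, plus strand), chr15:101412153-101412401 (Krt7, plus) and chr15:102027966-102028179 (Krt18, plus). The Krt7 E-box also lies within an exon of a GENCODE transcript that starts further upstream.
Epcam: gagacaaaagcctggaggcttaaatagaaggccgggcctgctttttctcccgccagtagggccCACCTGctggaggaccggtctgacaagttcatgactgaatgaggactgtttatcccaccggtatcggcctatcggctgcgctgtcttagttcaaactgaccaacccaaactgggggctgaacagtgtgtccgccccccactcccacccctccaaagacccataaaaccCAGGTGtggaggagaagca
Krt7: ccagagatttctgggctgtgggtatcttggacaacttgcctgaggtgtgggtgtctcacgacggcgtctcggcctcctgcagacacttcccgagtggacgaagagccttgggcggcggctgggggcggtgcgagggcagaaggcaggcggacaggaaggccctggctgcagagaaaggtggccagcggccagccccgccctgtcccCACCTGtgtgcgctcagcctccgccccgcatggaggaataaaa
Krt18: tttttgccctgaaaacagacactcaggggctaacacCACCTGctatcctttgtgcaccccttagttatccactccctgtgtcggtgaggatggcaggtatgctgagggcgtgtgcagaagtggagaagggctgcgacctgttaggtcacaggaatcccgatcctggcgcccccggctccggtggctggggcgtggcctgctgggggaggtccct

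The E-box letters stood 187 and 19 bases before the start of Epcam, 44 before that of Krt7 and 214 before that of Krt18. Krt8 and Krt18 are neighbours that run away from each other, with 23697 bases between them. Among the other epithelial genes, 13 of the 22 with a window held the letters in at least 1 window (59.1%), against 1 of 19 mesenchymal genes (5.26%). The shares were 5 of 13 for the intestinal list (38.5%) and 19.4% for all 27025 genes with a window. This describes letters in a window, without showing that any factor binds there.

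The antibody comparisons asked whether PD-1 blockade changed these genes. At day 4, 0 of the 8 genes tested passed in either direction, as did 0% of all 14556 tested genes as higher and 0% as lower, although 895 genes had an unadjusted p under 0.05. The controls include replicate 1, the library with 54.6% mitochondrial RNA. Of the 5 controls, 3 belong to a run of sample identifiers that holds no PD-1 Ab tumor, so run and antibody can be told apart only in part. Krt8 was at 0, 0, 0.277, 0 and 0.116 FPKM in isotype controls and at 0.0495, 0.944, 2.09, 1.48 and 1.99 in PD-1 Ab tumors. The groups overlapped through 1 PD-1 Ab tumor, and 4 of 5 were above every control. Its log2 fold change of 2.75 (SE 0.75) had an adjusted p of 0.353 and was the only one of the 8 with an unadjusted p under 0.05. Krt18, which was at 0, 1.30, 0, 0.694 and 1.07 FPKM in the PD-1 Ab tumors, had 0.95 (SE 0.84, adjusted p 0.825). Krt8, Krt18 and Krt19 met the filter only through the PD-1 Ab group (means of 0.0786, 0.141 and 0.447 FPKM in controls). The tests could hardly have called these keratins lower, and their values are given as a description. PD-1 Ab replicate 3 held 2.09 FPKM of Krt8 with Krt18 listed at 0, the only tumor with Krt8 above 1 FPKM and no Krt18. The log2 fold changes of Cdh1, Epcam, Vim, Cdh2 and Zeb1 were 0.58, 0.33, 0.38, 0.20 and 0.04, beside a median of 0.26 over all tested genes and 0.01 after median-of-ratios scaling.

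At day 8, 0 of 9 genes tested passed, where 6.69% of 15062 genes passed as higher and 1.56% as lower. Unadjusted p-values under 0.05 were reached by 3 of the 9 (Cdh1, Cdh2 and Krt7), of which Krt7 was tested only because of its PD-1 Ab levels. Cdh1 came nearest. It was at 1.68, 1.18, 1.52, 1.10 and 1.72 FPKM in isotype controls and at 2.68, 3.11, 2.50, 2.99 and 1.61 in PD-1 Ab tumors, of which 4 of 5 were above every control. Its log2 fold change was 0.79 (SE 0.22, adjusted p 0.0236), and it passed without PD-1 Ab replicate 5 (0.94, adjusted p 0.00346) or with array weights (0.77, 0.00243). Replicate 5 was also the PD-1 Ab tumor of day 8 with Krt8 and Krt18 listed at 0 and the highest Cdh2.

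Cdh2 was at 15.9, 15.3, 13.6, 14.2 and 21.1 FPKM in PD-1 Ab tumors of day 8 and at 27.1, 25.0, 17.0, 19.4 and 19.8 in isotype controls. Here 4 of 5 PD-1 Ab tumors were below every control. The log2 fold change was -0.43 (SE 0.15, adjusted p 0.0632), and -0.66 with array weights (0.000924). Krt7 was at 0.939, 0.0721, 0.175, 0.084 and 0.203 FPKM in controls and at 2.19, 1.14, 0.547, 1.47 and 0.141 in PD-1 Ab tumors, with a log2 fold change of 1.60 (SE 0.65, adjusted p 0.091). Its groups overlapped.

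The larger keratin differences at day 8 had the larger errors. Krt8 was at 8.89, 0.38, 0.951, 0.0553 and 0.844 FPKM in controls and at 16.8, 9.61, 1.09, 11.3 and 0 in PD-1 Ab tumors, so that the PD-1 Ab group held both the highest and the lowest value. The log2 fold changes were 1.68 for Krt8 (SE 1.40, adjusted p 0.396), 1.77 for Krt18 (SE 1.31, 0.337) and 1.52 for Krt19 (SE 1.10, 0.326). Epcam had 0.74 (SE 0.41, adjusted p 0.195), Vim -0.02 (SE 0.11, 0.914) and Zeb1 0.05 (SE 0.20, 0.872). Of the epithelial list, 3 of 17 tested genes were higher and 0 lower with PD-1 Ab, beside 6.69% and 1.56% of all tested genes. They were Pkp3 (1.46, adjusted p 0.00381), F11r (0.81, 0.00777) and Bspry (1.44, 0.0097), the last of which met the filter only through the PD-1 Ab group (means of 0.869 and 0.242 FPKM). Of the mesenchymal list 3 of 29 were higher and 0 lower, namely Tagln (1.92, 0.00869) and Acta2 (1.14, 0.0076) of smooth muscle and the lysyl oxidase Loxl2 (1.88, 0.00805). Of the 5 adipocyte markers, 2 were higher, and the leukocyte sum was 712 to 2375 FPKM with PD-1 Ab against 463 to 558 in controls. The difference between the antibody effects at day 8 and day 4 passed for 0 of the 9 genes with a value (adjusted p 0.623 to 0.986, limma over 15289 genes, with differences from -1.07 for Krt8 to 0.84 for Krt19).

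**Figure D5:**
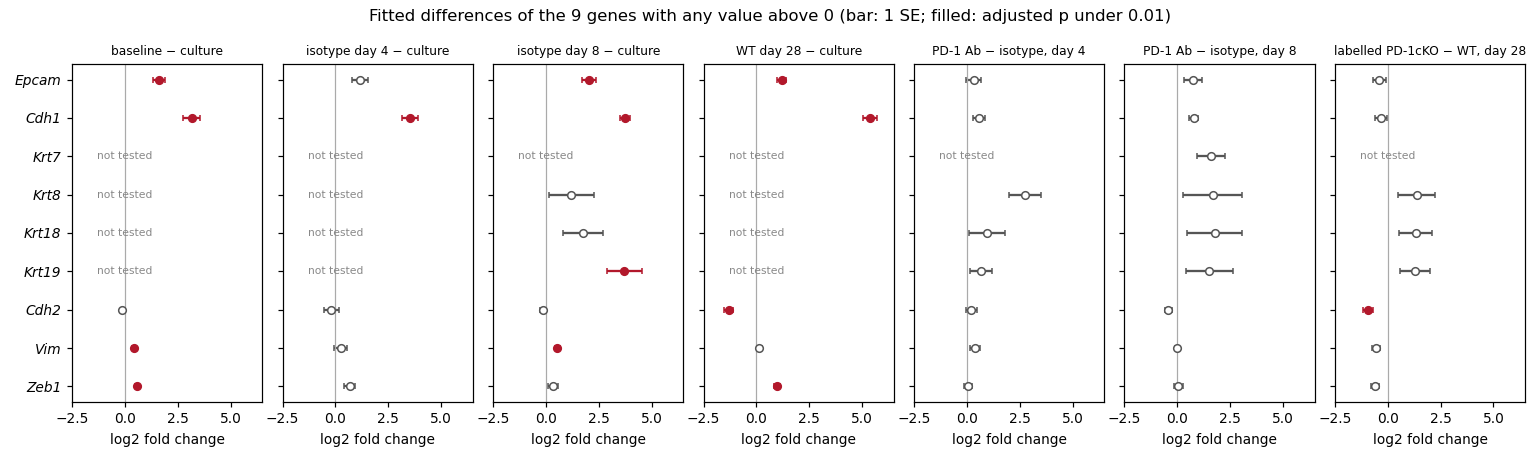
Log2 fold changes of the 9 genes with any value above 0 in the 7 comparisons, with bars of 1 SE and filled points for an adjusted p under 0.01 (limma). Cdh1 is filled in all 4 comparisons with culture, and of the 3 comparisons between tumor groups only that of tumors labelled PD-1cKO has a filled point, for Cdh2.

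In the PD-1cKO study, 1 of the 8 genes tested passed as lower and 0 as higher, where 12.6% of 15075 genes passed as lower and 8.78% as higher. Cdh2 ranged from 1.88 to 9.07 FPKM around a median of 5.09 in the 10 tumors labelled PD-1cKO and from 6.49 to 14.3 around 9.16 in the 10 WT tumors. The groups overlapped. Cdh2 fell by 0.93 on the log2 scale (SE 0.25, adjusted p 0.00686), beside a median of -0.20 over all tested genes. The call did not hold widely, with 16 of 32 alternatives passing. Without WT replicates 1, 2, 4, 8, 9 or 10 or replicates 4, 5, 7 or 8 labelled PD-1cKO, each left out by itself, the adjusted p was 0.0105 to 0.0135 and the difference -0.93 to -0.78. Replicates 4, 5 and 8 labelled PD-1cKO, which are the only tumors with over 60% short noncoding RNA, held 2.22, 4.15 and 1.88 FPKM of Cdh2, and without all 3 the difference was -0.54 (adjusted p 0.0363, an alternative added after seeing the data). With the run of sample identifiers as a covariate it was -1.51 (adjusted p 0.0267). These runs held 7, 1 and 2 tumors labelled PD-1cKO against 0, 9 and 1 WT tumors, so run and label can be told apart only in part.

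Vim and Zeb1 lay in the same direction without passing. Zeb1 ranged from 7.6 to 25.2 FPKM around 11.6 in tumors labelled PD-1cKO and from 12.9 to 23.1 around 21.4 in WT tumors, with a log2 fold change of -0.61 (SE 0.18, adjusted p 0.0113). It passed when replicate 6 or 9 labelled PD-1cKO, or WT replicate 9, was left out (-0.72 to -0.68, adjusted p 0.00137 to 0.00848), and with array weights (-0.64, 0.00167). In all, 5 of 32 alternatives passed. Without the 3 tumors over 60% short noncoding RNA the Zeb1 difference was -0.45 (adjusted p 0.0774). With the run of sample identifiers as a covariate it was -0.61 (adjusted p 0.147). Vim ranged from 342 to 1126 FPKM around 806 against 947 to 1257 around 1057, with -0.55 (SE 0.19, adjusted p 0.0243), and its 3 lowest values, 427, 573 and 342, were in the 3 tumors with over 60% short noncoding RNA. Without them the Vim difference was -0.23 (adjusted p 0.125).

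The epithelial genes did not pass in that comparison. Cdh1 ranged from 1.75 to 11.3 FPKM around 3.41 in tumors labelled PD-1cKO, with a log2 fold change of -0.30 (SE 0.28, adjusted p 0.386), and Epcam from 0.151 to 2.25 around 0.424, with -0.40 (SE 0.31, 0.291). Krt8 ranged from 0 to 19.8 FPKM around 0.113 against 0 to 1.79 around 0.0631, and the log2 fold changes of Krt8, Krt18 and Krt19 were 1.36 (SE 0.86, adjusted p 0.195), 1.32 (SE 0.76, 0.16) and 1.30 (SE 0.72, 0.145). With the run of identifiers as a covariate they were 3.54, 3.15 and 3.05, and without the 3 tumors over 60% short noncoding RNA 0.83, 0.80 and 0.61. These keratins met the filter only through the tumors labelled PD-1cKO (means of 0.268, 0.294 and 0.482 FPKM in WT tumors). The tests could hardly have called them lower, and their values are given as a description. Under the same alternatives Epcam was at 0.53 and -0.46 and Cdh1 at -1.07 and -0.02, and none of these 5 genes passed. The log2 ratio of Cdh1 to Cdh2 had a median of -0.65 in tumors labelled PD-1cKO and -0.86 in WT tumors, against -4.24 at baseline and -7.76 in culture, and it was above 0 in 3 of the 43 tumors, all labelled PD-1cKO. Of the epithelial list, 7 of 14 tested genes were higher and 0 lower, beside 8.78% and 12.6% of all tested genes, led by the P-cadherin gene Cdh3 (1.27, adjusted p 0.00211), Spint2 (1.25, 0.00371) and the tricellular junction gene Lsr (1.22, 0.000507). Cdh3 (means of 0.993 and 0.314 FPKM) and Bspry (0.845 and 0.31) met the filter only through the tumors labelled PD-1cKO. Of the mesenchymal list 4 of 29 were higher, led by Loxl2 (1.74, 0.00061), and 1 was lower, Cald1 (-0.95, 0.00489), and of the intestinal list Ephb3 was higher (0.76, 0.00802). The fibroblast sum was 2269 to 12556 FPKM in tumors labelled PD-1cKO and 1106 to 2324 in WT tumors, and the leukocyte sum 606 to 2496 against 340 to 754. Their part in these differences was not tested.

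The order of the groups differed by gene. By median FPKM, Cdh1 went up from culture (0.0082) through baseline (1.01) and the antibody groups to tumors labelled PD-1cKO (3.41) and then those of WT mice at day 28 (4.88), and only culture and baseline, next to each other in that order, had ranges that did not overlap. Cdh2 was lowest in tumors labelled PD-1cKO (5.09), then WT tumors (9.16), PD-1 Ab tumors of day 8 (15.3) and isotype controls of day 8 (19.8), and neighbours in that stretch overlapped. Krt8, Krt18 and Krt19 were all highest in PD-1 Ab tumors of day 8 (9.61, 8.65 and 13.4), whose range overlapped that of the next group for each. The tumors of day 28 differ from all other groups in the share of short noncoding RNA, and the cultures share no run of sample identifiers with any tumor. Group and library therefore cannot be told apart in these orders. The labelled days of the antibody groups and of the day 28 tumors also count from different starting points.

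The genes most like each of these in the tumors were of different kinds. Over the 43 tumors, by Pearson's r of deviations from the group means among genes averaging 1 FPKM or more, the closest to Cdh1 were Ptgs1 (0.79), which encodes cyclooxygenase-1, the stress gene Gadd45a (0.74) and Tarm1 (0.74), a receptor of myeloid cells. The closest to Cdh2 were Sox9 (0.93), Flrt3 (0.92) and Tspan2 (0.91). Those closest to Vim were Nudc, Slc35b1 and Lsm14b (each 0.95), and those closest to Zeb1 were Arhgap29 (0.92), Dync1li2 (0.91) and Srpk2 (0.90). Beside the other keratins, the closest to Krt8 was the lipid desaturase gene Scd1 (0.73), to Krt18 the glutamine synthetase gene Glul (0.80) and to Krt19 the carboxylesterase gene Ces1d (0.72). The tumors share libraries and tissue makeup, and the correlations are given as description.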

How the data were processed

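RNA-seq of bulk material from 46 samples was analysed, each in the group its labels give. Per the study's methods and labels, rRNA was removed from total RNA, and the authors made stranded libraries, sequenced 50-base paired ends, aligned them to mouse build B38 with at most 2 mismatches in Omicsoft Array Studio 10.0.1.118 and quantified Ensembl release 86 genes. The values the authors deposited are FPKM for 48795 genes, so library depth cannot be recovered and precision is given by the spread between samples. The study describes its tumor samples as single animals. Nothing in the sources used here says that the 3 cultures were grown separately, so their spread may be technical. The authors' own DESeq2 test used counts, which were not analysed here.

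Values were used as deposited, with 0.1 FPKM added before log2. Each comparison used only its own groups and the genes that averaged 0.5 FPKM or more in either. The test was limma 3.58.1 (R 4.3.3) with a variance trend, with Benjamini-Hochberg adjustment over all tested genes and a limit of 0.01. The code was tested on simulated data. The genes, lists and comparisons were chosen with earlier results of these data known. Named genes are the 10 genes, keratins with a group mean of at least 1 FPKM, the 4 genes of each list highest in culture, up to 3 passing genes per list, direction and comparison, and the 3 genes most correlated with each gene whose tumor mean is at least 1 FPKM. Gene models came from GENCODE M21 (99.3% of identifiers matched) and start-site windows from RefSeq (GRCm38.p6). Cdh1 and Krt19 had no window in that table, 6 of the 10 genes did, and 1 named gene and 1 start-site sequence are not reported here. Alternatives covered the pseudocount, filter, scaling, fit, block, run of identifiers and each replicate left out. Python 3.11.15, numpy 2.4.6, pandas 2.3.3 and matplotlib 3.10.9 were used.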

Additional observations from a re-analysis of the deposited data

Results flagged for a closer look

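Within groups of 5 or 10 tumors, 8 single values stood far from the rest of their group on the log2(FPKM + 0.1) scale, among 54 combinations of gene and group examined. Chance alone flags about 1 in 20, or 2.7 of them. Each is given with the gap to its nearest neighbour as a share of the range of the group. Isotype control replicate 1 of day 4, the library with 54.6% mitochondrial RNA, was lowest in Cdh2 (10.1 FPKM, 0.922 of the range), Epcam (0.289 FPKM, 0.828) and Vim (578 FPKM, 0.877). PD-1 Ab replicate 1 of day 4 was lowest in Krt8 (0.0495 FPKM against 0.944 to 2.09, 0.724 of the range). PD-1 Ab replicate 4 of day 8 was lowest in Zeb1 (10.7 FPKM against 13.6 to 15.0, 0.724). WT replicate 8 of day 28 was highest in Krt18 (1.60 FPKM, 0.516) and Krt19 (2.56 FPKM, 0.516), and its Adipoq was 8.42 FPKM. Replicate 8 labelled PD-1cKO was highest in Epcam (2.25 FPKM against at most 0.611, 0.534), and it was the tumor highest in Krt8, Krt18 and Krt19 of all samples. No explanation was tested for these values.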

How the results depend on the processing

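The counts of genes passing moved in several places. At day 8 of PD-1 Ab treatment 0 passed, against 2 with array weights and 0 to 1 with a replicate left out. For tumors labelled PD-1cKO 1 passed, against 0 with no filter, with equal sums over nuclear protein-coding genes, with a 2-fold limit, with the run of identifiers as a covariate and without the 3 tumors over 60% short noncoding RNA (chosen after seeing the data), 3 with all 8 groups in 1 fit, and 0 to 2 with a replicate left out. At baseline 4 passed, against 2 with a filter at 1 FPKM, 1 with all 8 groups in 1 fit and 2 with a 2-fold limit. For isotype controls of day 4 against culture 1 passed, against 4 with median-of-ratios scaling, 3 with upper-quartile scaling, 4 with equal protein-coding sums, 4 with array weights and 1 to 4 with a replicate left out. For isotype controls of day 8 against culture 4 passed, against 2 with no filter, 6 with array weights (Krt18 and Zeb1 added) and 2 to 4 with a replicate left out, and the call of Vim was also lost with upper-quartile scaling (adjusted p 0.0193) and with all 8 groups (0.127). No called gene changed direction. The causes of these moves were not tested. With all 8 groups in 1 fit, baseline Epcam, Zeb1 and Vim had adjusted p-values of 0.0179, 0.235 and 0.438. Of the single-gene differences, 955 results under an alternative stayed on their side of the limit, 40 lost the call and 27 gained it. With the replicate block the count was 0 for tumors labelled PD-1cKO against 1 without it (Cdh2 adjusted p 0.0153), although the samples share only a number: deviations of same-numbered samples correlated with medians of 0.03, -0.02 and -4.68e-05 over 5, 5 and 10 pairs, and 1, 0 and 0 correlated best with their own number. The block also ended the calls of Epcam at baseline (adjusted p 0.0103) and in WT tumors (0.0131) and of Vim in isotype controls of day 8 (0.111). Genes near 0 FPKM, such as the keratins in culture, cannot be resolved without read depth.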
